A study of Mus musculus with 19 samples.

Results

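Expression of 10 genes of the interleukin-6 (IL-6) and IL-20 cytokine families was followed in mouse skin with early basal cell carcinoma (BCC) after laser or vismodegib treatment. The genes were taken by name from the count matrix, and they make up 10 of its 18521 genes. They are the ligand genes Il6, Osm, Lif, Il11, Il19 and Il24, the receptor genes Osmr, Il6ra and Il6st, and the feedback inhibitor gene Socs3. All 10 passed the filter on low counts. All mice were female Ptch1+/- K14-CreER2 p53fl/fl animals, which have 1 working allele of the Hedgehog receptor gene Ptch1. Their floxed p53 gene is removed by tamoxifen in cells that use the keratin 14 promoter, so other skin cells keep it. RNA came from skin collected on day 4, and the treated skin areas measured 1 cm2.

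Induced skin had received 3 injections of 300 µg tamoxifen and 1 x-ray dose of 4 Gy. The AFL group of 3 mice (4 libraries, age 228 to 326 days) was induced and then had 1 pass of ablative fractional laser, which burns an array of fine channels into the skin, at 5% density and 40 mJ per microbeam. The vismodegib group of 4 mice (5 libraries, 268 to 326 days) was induced and then had 8 topical applications of vismodegib, a blocker of the Hedgehog signal transducer Smoothened. The BCC group of 4 mice (4 libraries, 278 to 320 days) was induced and left untreated. The healthy group of 5 mice (6 libraries, 128 to 137 days) was neither induced nor treated, and had neither tamoxifen nor x-rays. No mice given a vehicle or a sham procedure were analysed here, so a treatment and its handling cannot be told apart. Age and induction also cannot be told apart, and days since induction did not overlap between AFL mice (80 to 126) and BCC mice (130 to 144).

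IL-6, oncostatin M (Osm), leukaemia inhibitory factor (Lif) and IL-11 are secreted proteins that signal through receptor complexes sharing the subunit gp130, the product of Il6st. IL-19 and IL-24 belong to the IL-20 family, whose receptors sit mainly on epithelial cells such as keratinocytes. Both families activate Janus kinases and the transcription factor STAT3, and STAT3 in turn switches on Socs3, which damps the receptors. In skin, oncostatin M and IL-20 family cytokines are known for driving keratinocytes into the state seen in wounds and psoriasis, while IL-6 takes part in wound closure.

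The stretches of DNA just before the start of 4 of these genes are shown because Il6, Il19 and Lif rose after treatment, and Socs3 is a known STAT3 target. They come from RefSeq on build GRCm38.p6, which matched 8 of the 10 genes, while the counts were made on GRCm39. Osm and Il24 had no entry. The first 2 are the 250 bases before the start, and the others are 30 bases around a match, since the rest of those windows overlaps or adjoins annotated exons. Capitals mark matches, on either strand, to the STAT motif TTCNNNGAA, the AP-1 motif TGANTCA or the NF-kB motif.
Il6, chr5:30012864-30013113, plus strand: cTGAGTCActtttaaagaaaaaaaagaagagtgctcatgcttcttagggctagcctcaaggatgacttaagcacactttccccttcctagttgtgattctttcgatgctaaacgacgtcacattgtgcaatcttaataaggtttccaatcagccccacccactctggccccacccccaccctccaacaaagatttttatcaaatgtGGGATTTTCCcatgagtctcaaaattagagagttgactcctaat
Il19, chr1:130940116-130940365, minus strand: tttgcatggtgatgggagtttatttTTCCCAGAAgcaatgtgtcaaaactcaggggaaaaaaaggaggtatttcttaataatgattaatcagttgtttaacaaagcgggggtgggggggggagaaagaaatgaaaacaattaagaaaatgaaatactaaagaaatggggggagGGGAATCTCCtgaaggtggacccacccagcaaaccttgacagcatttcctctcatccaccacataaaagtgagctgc
Socs3, chr11:117969502-117969531, minus strand: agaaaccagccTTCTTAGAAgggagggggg
Lif, chr11:4257328-4257357, plus strand: cccagtcagctgTGACTCAggccatagtgg
Counted back from the start, the Il6 window holds an AP-1 match at -249 to -243 and an NF-kB match at -44 to -35. The Il19 window holds a STAT match at -225 to -217 and an NF-kB match at -77 to -68. The Socs3 match is to the STAT motif (-154 to -146) and the Lif match to AP-1 (-228 to -222). An AP-1 match also stands at -98 to -92 of Il11. The windows of Osmr, Il6ra and Il6st held no match to any of these motifs and are not shown, although Osmr also rose after vismodegib. No matches overlapped. Among 32851 windows of 250 bases from the same table, 7.02% hold the STAT motif, 6.75% AP-1 and 3.9% NF-kB. The GLI motif TGGGTGGTC of the Hedgehog pathway stands in 0.225% of the windows and was not found in any window of the genes described here. Matches describe letters in these windows and do not show binding.

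In gene order, Osm and Lif are next to each other on chromosome 11, and Il24, Il20 and Il19 follow one another on chromosome 1 beside Il10. Osmr neighbours the LIF receptor gene Lifr on chromosome 15, and Il6st neighbours the IL-31 receptor gene Il31ra on chromosome 13.

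Library totals lay between 27185900 and 33556600 counts. The floxed gene Trp53 was at 31.5 to 44.9 CPM (reads scaled to a common library size) in AFL, 25.3 to 55.1 in vismodegib and 23.6 to 36.3 in BCC mice, against 94 to 143 in healthy mice. Vismodegib mouse 9 stood apart in composition, with 16.1% of its counts in 20 genes, against 5.8% to 10.4% in the other mice, and a TMM scaling factor of 0.591. AFL mouse 11 stood apart in neutrophil markers. The 10 neutrophil markers summed to 69.2, 41.4 and 477 CPM in AFL mice 2, 7 and 11 and to 109, 63.4, 198 and 228 CPM in vismodegib mice 1, 6, 9 and 12, against 5.73 to 9.73 in BCC and 3.48 to 5.41 in healthy mice. Up to 3 of the 10 were at 0 in single BCC and healthy mice, and up to 1 in treated mice. Keratinocyte markers, which define the tissue, were present in every mouse, with none of 10 at 0.

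After AFL, 3 of the 10 genes rose against BCC and none fell: Osm, Il24 and Il6, all ligand genes. Among all 15760 genes tested, 6.1% rose and 1.65% fell in that comparison (7.75% in all), and the median log2 fold change was 0.77 over the 10 genes and -0.04 over all genes. After vismodegib, 4 of 10 rose against BCC and none fell: Il19, Il6, Lif and the receptor gene Osmr. There 8.03% of all genes rose and 9% fell (17% in all), with medians of 1.32 for the 10 genes and 0.05 for all genes. Set directly against each other, AFL skin had more Osm than vismodegib skin and less Lif and Il19, while 6.69% of all genes were higher and 2.46% lower in AFL skin (9.15% in all), with medians of -0.01 and -0.06. The 2 comparisons with BCC share the same BCC mice. In whole skin, fewer cells of a type and less RNA per cell cannot be told apart.

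**Figure D1:**
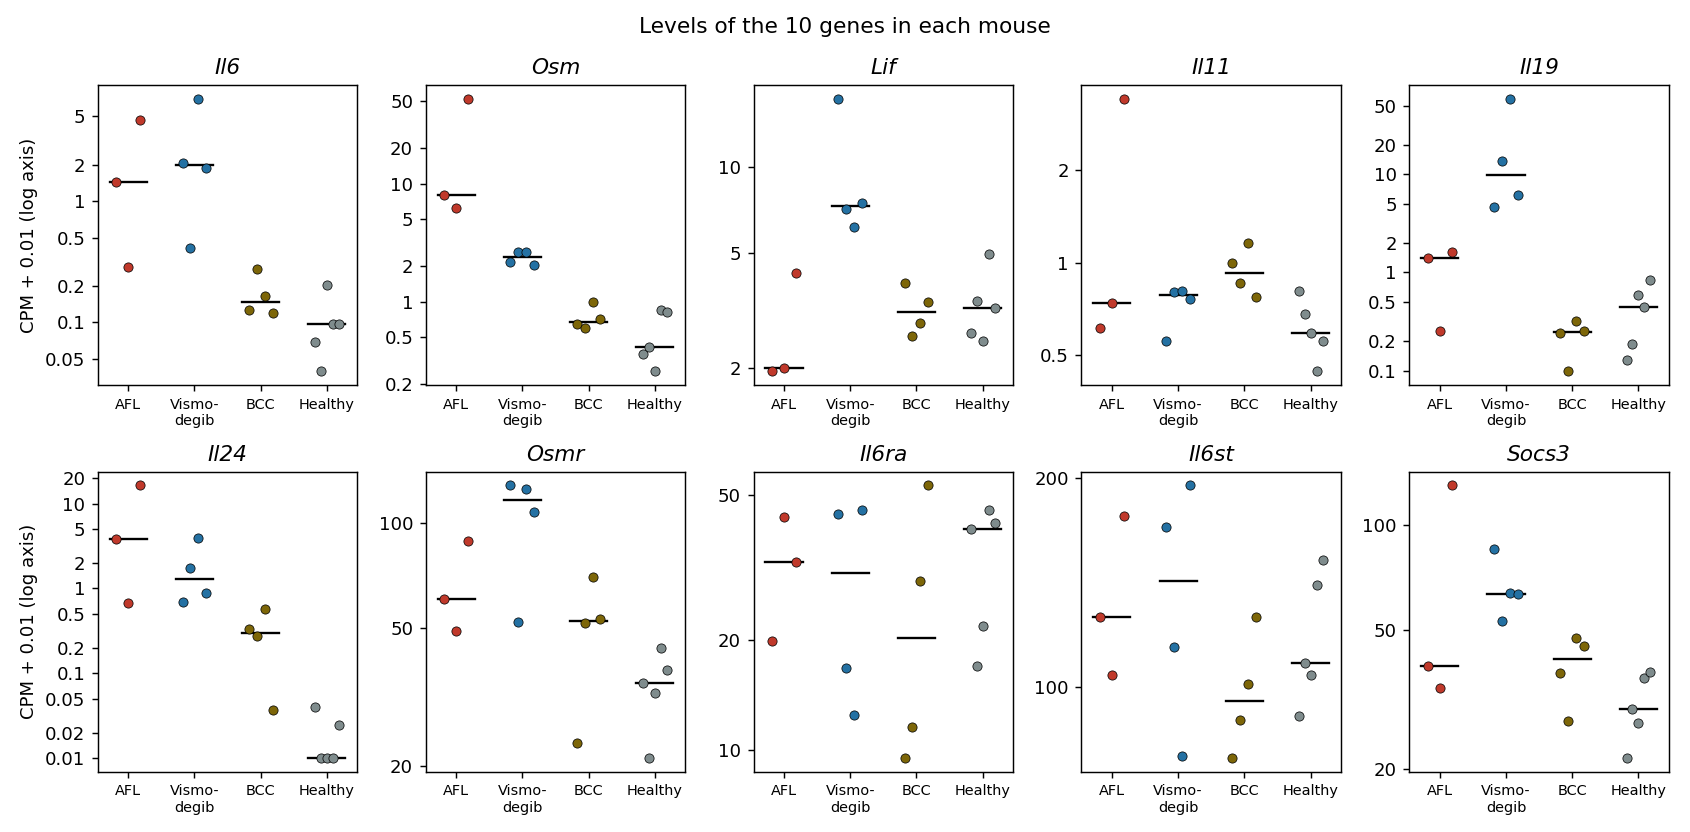
CPM plus 0.01 of each of the 10 genes on a log axis, with 1 point per mouse and the group median as a bar, for AFL, vismodegib, BCC and healthy skin. Osm is highest in the 3 AFL mice and Il19 in the 4 vismodegib mice, while points of Il6ra and Il6st overlap in all groups.

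Oncostatin M is made mainly by myeloid cells and T cells and acts on keratinocytes, fibroblasts and endothelium. Osm stood at 8.09, 6.28 and 52.9 CPM in AFL mice 2, 7 and 11 and at 2.15, 2.65, 2.66 and 2.04 CPM in vismodegib mice 1, 6, 9 and 12. It stood at 0.637, 0.588, 0.995 and 0.708 CPM in BCC mice 3, 4, 5 and 8, and at 0.355, 0.408, 0.248, 0.839 and 0.81 CPM in healthy mice 10, 13, 14, 15 and 16. Every AFL mouse was above every vismodegib mouse, and every vismodegib mouse above every BCC and healthy mouse, while BCC and healthy mice overlapped. Osm averaged 22.4 ± 26.4 CPM in AFL and 0.732 ± 0.182 CPM in BCC (SD, n = 3 and 4), and rose by 4.93 on the log2 scale (SE 0.66, edgeR adjusted p = 2e-04). AFL mouse 11 carried a large share of that mean, and without it the change was 3.26 and still passed. Against vismodegib, with 2.37 ± 0.323 CPM (n = 4), Osm was higher after AFL by 3.24 (SE 0.61, edgeR adjusted p = 0.00387). Vismodegib against BCC gave 1.69 (SE 0.58, edgeR adjusted p = 0.0549) and did not pass, with all 4 vismodegib mice above all BCC mice. That value passed in 4 of 18 alternatives and not in the other 14. Those that passed included DESeq2 (1.68, adjusted p = 0.0208) and the hair score as a covariate (1.72, adjusted p = 0.0469). They also included days since induction as a covariate, fitted on the induced mice alone (2.21, adjusted p = 0.0235).

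IL-6 is made by many cell types in injured tissue. Il6 stood at 1.43, 0.274 and 4.62 CPM in AFL mice 2, 7 and 11 and at 2.05, 0.396, 7.01 and 1.87 CPM in vismodegib mice 1, 6, 9 and 12. It stood at 0.116, 0.265, 0.155 and 0.109 CPM in BCC mice 3, 4, 5 and 8, and between 0.0292 and 0.193 CPM in the 5 healthy mice. The lowest AFL mouse, mouse 7, lay just above the highest BCC mouse, mouse 4, each with 9 reads, whereas vismodegib and BCC mice were further apart. Il6 averaged 2.11 ± 2.25 CPM in AFL and 0.161 ± 0.0719 CPM in BCC (SD, n = 3 and 4) and rose by 3.7 (SE 0.91, edgeR adjusted p = 0.018). That call ended without AFL mouse 11 (2.33, adjusted p = 0.215), without BCC mouse 3 (3.57, adjusted p = 0.0549) or 8 (3.54, adjusted p = 0.0592) and in limma voom (2.92, adjusted p = 0.11). After vismodegib Il6 averaged 2.83 ± 2.88 CPM (n = 4) and rose against BCC by 4.1 (SE 0.89, edgeR adjusted p = 0.00664), a call that held under all 18 alternatives run. The direct difference between AFL and vismodegib was -0.4, with a 95% interval of -2.13 to 1.34 (edgeR adjusted p = 0.788). No BCC or healthy mouse held more than 9 reads of Il6. The gene passed the count filter only through treated mice, where it is high, so its p values against BCC are not independent support.

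LIF acts on stem cells and nerves and also signals in skin through gp130 and the LIF receptor. Lif stood at 1.93, 1.98 and 4.27 CPM in AFL mice 2, 7 and 11 and at 17.3, 7.15, 6.16 and 7.5 CPM in vismodegib mice 1, 6, 9 and 12. It stood at 3.94, 2.56, 2.86 and 3.38 CPM in BCC mice 3, 4, 5 and 8, and between 2.46 and 4.98 CPM in healthy mice. All vismodegib mice lay above all others, and mouse 1 was the highest. Lif rose after vismodegib against BCC, with means of 9.52 ± 5.2 and 3.18 ± 0.607 CPM (SD, n = 4 each; log2 fold change 1.58, SE 0.38, edgeR adjusted p = 0.0118). It was lower after AFL than after vismodegib (log2 fold change -1.8, SE 0.42, edgeR adjusted p = 0.0151), a call that ended without AFL mouse 2 (-1.54), AFL mouse 7 (-1.61) or vismodegib mouse 1 (-1.34). AFL against BCC gave -0.22 with an interval of -1.08 to 0.64 (edgeR adjusted p = 0.832). With days since induction as a covariate, the change after vismodegib was 1.43 (adjusted p = 0.0693).

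IL-11 is a gp130 cytokine known from fibroblasts and matrix-forming tissue. Il11 was high in AFL mouse 11, with 3.4 CPM. The other AFL mice had 0.603 and 0.732 CPM, vismodegib mice 0.546 to 0.797, BCC mice 0.763 to 1.15 and healthy mice 0.434 to 0.798. No comparison passed for Il11. AFL against BCC gave 0.77 (SE 0.49, edgeR adjusted p = 0.407), and -0.52 without mouse 11.

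The IL-20 family ligand IL-19 is made by keratinocytes and myeloid cells. Il19 stood at 1.4, 0.244 and 1.6 CPM in AFL mice 2, 7 and 11 and at 4.64, 13.7, 59.2 and 6.18 CPM in vismodegib mice 1, 6, 9 and 12. It stood at 0.232, 0.0882, 0.311 and 0.245 CPM in BCC mice 3, 4, 5 and 8, and at 0.118, 0.175, 0.58, 0.434 and 0.838 CPM in healthy mice 10, 13, 14, 15 and 16. All vismodegib mice were above every other mouse, with mouse 9 far above the rest, while AFL mouse 7 lay within the BCC range. Il19 averaged 20.9 ± 25.8 CPM after vismodegib and 0.219 ± 0.0938 CPM in BCC (SD, n = 4 each) and rose by 6.56 (SE 0.97, edgeR adjusted p = 0.000676). This call held under all 18 alternatives run. Without mouse 9 the change was 5.23. AFL was lower than vismodegib (log2 fold change -4.26, SE 0.96, edgeR adjusted p = 0.0116), with -2.82 when days since induction was a covariate (adjusted p = 0.0673). AFL against BCC gave 2.3 (SE 0.89, edgeR adjusted p = 0.144), and 4.12 with that covariate (adjusted p = 0.0204), where alone of 17 alternatives it passed.

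IL-24 is a further IL-20 family ligand of activated keratinocytes and immune cells. Il24 stood at 3.84, 0.671 and 16.4 CPM in AFL mice 2, 7 and 11 and at 0.683, 1.73, 3.93 and 0.865 CPM in vismodegib mice 1, 6, 9 and 12. It stood at 0.319, 0.265, 0.56 and 0.0272 CPM in BCC mice 3, 4, 5 and 8. Among healthy mice it had 1 read in each of mice 10 and 16 and none in the other 3. All treated mice lay above all BCC mice, and AFL and vismodegib mice overlapped. Il24 averaged 6.97 ± 8.33 CPM in AFL and 0.293 ± 0.218 CPM in BCC (SD, n = 3 and 4) and rose by 4.58 (SE 0.96, edgeR adjusted p = 0.00688), but by 2.89 without AFL mouse 11 (adjusted p = 0.0915). Vismodegib, at 1.8 ± 1.49 CPM (n = 4), gave 2.6 against BCC (SE 0.89, edgeR adjusted p = 0.0542) and did not pass. That value passed in 4 of 18 alternatives, among them DESeq2 (2.61, adjusted p = 0.0197), and not in the other 14. AFL against vismodegib gave 1.97 with an interval of 0.14 to 3.81 (edgeR adjusted p = 0.16). Il24 passed the count filter only through treated mice, where it is high, so its p values against BCC are not independent support.

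Other ligand genes of both families were examined as a list of 10, of which 8 were tested and Ctf2 and Il31 were too low. After AFL, 2 of 8 rose and 1 fell against BCC, beside 6.1% and 1.65% of all genes. Il27 and Ebi3 encode the subunits of IL-27. Il27 stood at 0.571, 0.579 and 0.574 CPM in the AFL mice and 0.0588 to 0.136 CPM in BCC mice (log2 fold change 2.46, SE 0.53, edgeR adjusted p = 0.00771). Ebi3 stood at 3.99 to 5.49 CPM in AFL mice and 1.09 to 1.55 CPM in BCC mice (1.82, SE 0.42, edgeR adjusted p = 0.0121). AFL and BCC mice did not overlap for either gene, and each call ended with days since induction as a covariate (2.19 and 1.22). Il27 passed the count filter only through AFL mice, the group where it is high, so its p is not independent support. Ctf1, for the gp130 ligand cardiotrophin 1, fell after both treatments, with log2 fold changes of -1.21 after AFL (SE 0.28, edgeR adjusted p = 0.012) and -0.92 after vismodegib (SE 0.25, edgeR adjusted p = 0.0215). It stood at 3.18 to 6.77 CPM in AFL and 5.05 to 6.85 CPM in vismodegib mice, against 8.36 to 14 CPM in BCC mice. The fall after AFL ended without AFL mouse 11 (-1.01), and that after vismodegib without vismodegib mouse 9 (-0.86) or 12 (-0.85) or BCC mouse 4 (-0.8).

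After vismodegib, 1 of the 8 rose and 1, Ctf1, fell, beside 8.03% and 9% of all genes. The number that rose was 0 without vismodegib mouse 1 or 9, 3 without mouse 6 and 3 with DESeq2. The gene that rose was Il22, which encodes the IL-20 family member IL-22 of T cells and innate lymphoid cells. It had 33, 3, 106 and 149 reads in vismodegib mice 1, 6, 9 and 12. Apart from 3 reads in BCC mouse 8, no BCC, AFL or healthy mouse had a read. The ratio of vismodegib to BCC was 92.2, with a 95% counting interval of 31.2 to 450 (edgeR adjusted p = 0.0122). Il22 passed the count filter only through vismodegib mice, the group where it is high, so that p is not independent support. The interval pools reads over mice, and mouse 12, with 2 libraries, held 149 of them. AFL was at least 86.4-fold lower than vismodegib, against a floor of 3 reads over the AFL group. Without vismodegib mouse 1, 9 or 12 the gene was below the count filter and was not tested. The 7 T cell markers in the file summed to 23 to 68.3 CPM in vismodegib mice, 26 to 46.2 in AFL mice and 37.4 to 61.1 in BCC mice, and none was called between treated and BCC skin.

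**Figure D2:**
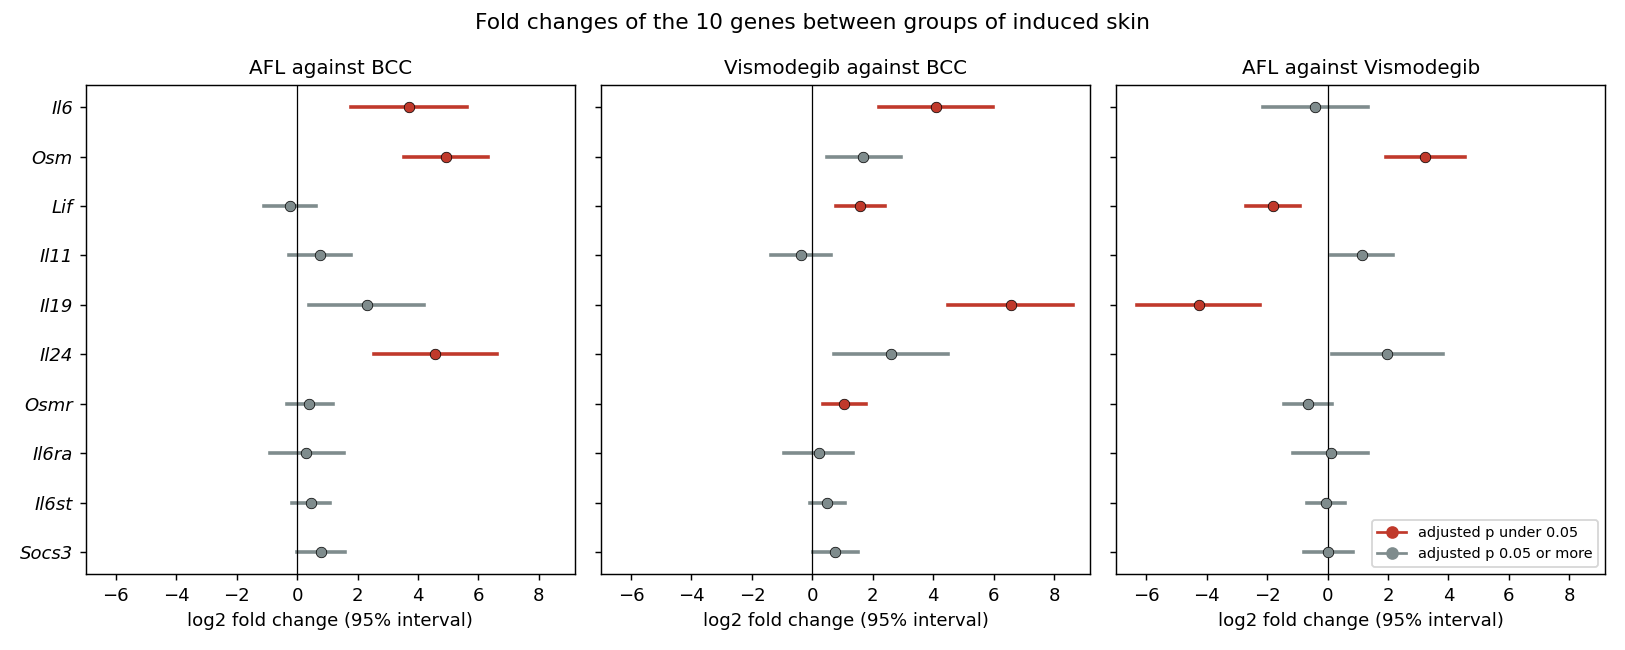
Log2 fold changes of the 10 genes with 95% intervals for AFL against BCC, vismodegib against BCC and AFL against vismodegib, red where the edgeR adjusted p was under 0.05. Osm lies at 4.93 after AFL and Il19 at 6.56 after vismodegib, whereas Lif after AFL (-0.22) lies near 0 and the intervals of Il6ra and Il6st cover 0 in all 3 panels.

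Among the receptor genes, Osmr encodes the subunit that pairs with gp130 to bind oncostatin M, and it also serves the IL-31 receptor. Osmr stood at 60.2, 48.9 and 88.5 CPM in AFL mice 2, 7 and 11 and at 128, 52, 125 and 107 CPM in vismodegib mice 1, 6, 9 and 12. It stood at 23.3, 51.6, 69.7 and 53 CPM in BCC mice 3, 4, 5 and 8, and between 21.1 and 43.7 CPM in healthy mice. Vismodegib mice 1, 9 and 12 were above every BCC mouse and mouse 6 was within their range. Osmr rose after vismodegib, with means of 103 ± 35.4 and 49.4 ± 19.3 CPM in BCC (SD, n = 4 each; 1.06, SE 0.34, edgeR adjusted p = 0.0436). This call lay near the threshold and ended in 8 of 18 alternatives, among them library size alone (0.64), days since induction (1.19) and leaving out vismodegib mouse 1 (0.94), 9 (0.98) or 12 (1.04) or BCC mouse 3 (0.83), 4 (1.08) or 8 (1.03). AFL against BCC gave 0.41 with an interval of -0.35 to 1.18 (edgeR adjusted p = 0.578).

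The ligand-binding IL-6 receptor gene Il6ra was not called in any of the 6 comparisons. It ranged from 19.8 to 43.4 CPM in AFL, 12.4 to 45.5 in vismodegib, 9.47 to 53 in BCC and 16.9 to 45.4 in healthy mice, so all groups overlapped. AFL against BCC gave 0.31 (interval -0.91 to 1.54) and vismodegib against BCC 0.21 (interval -0.93 to 1.35). Il6st, for the shared subunit gp130, ranged from 104 to 176 CPM in AFL, 79.4 to 195 in vismodegib, 78.9 to 126 in BCC and 90.7 to 152 in healthy mice, and was likewise not called. Its changes against BCC were 0.46 after AFL (interval -0.17 to 1.08) and 0.5 after vismodegib (interval -0.08 to 1.09). The upper ends of all 4 intervals lie above the 1.06 measured for Osmr after vismodegib.

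Of 11 other receptor genes of the families, 10 were tested. After AFL 1 rose and none fell, and after vismodegib none was called, beside 7.75% and 17% of all genes. The riser was Il10rb, a subunit shared by the receptors for IL-10 and IL-22. It stood at 72, 81.3 and 77.3 CPM in AFL mice 2, 7 and 11 and 23.5 to 30.5 CPM in BCC mice, with no overlap (1.51, SE 0.21, edgeR adjusted p = 0.000241). After vismodegib 3 of the 10 had an unadjusted p under 0.05, and DESeq2 called 1 higher and 1 lower.

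Socs3 is bound and switched on by STAT3 and its protein blocks gp130 signalling. Socs3 stood at 39.6, 34.1 and 130 CPM in AFL mice 2, 7 and 11 and at 85.7, 53.3, 63.8 and 63.3 CPM in vismodegib mice 1, 6, 9 and 12. It stood at 37.6, 27.5, 47.6 and 45.1 CPM in BCC mice 3, 4, 5 and 8, and between 21.5 and 37.9 CPM in healthy mice. AFL mouse 11 was the highest of all, the other AFL mice lay within the BCC range, and all vismodegib mice were above all BCC mice. Neither comparison with BCC passed, with 0.78 after AFL (SE 0.38, edgeR adjusted p = 0.252; -0.13 without mouse 11) and 0.75 after vismodegib (SE 0.35, edgeR adjusted p = 0.15). Against healthy skin, vismodegib gave 1.12 (SE 0.33, edgeR adjusted p = 0.0393), a call that ended in 11 of 18 alternatives.

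Of the transducers between receptor and nucleus, Stat3 stood at 706, 257, 387 and 391 CPM in vismodegib mice 1, 6, 9 and 12 and 183 to 252 CPM in BCC mice, and rose by 0.99 (SE 0.27, edgeR adjusted p = 0.0222). That call ended without vismodegib mouse 1 (0.65) or BCC mouse 4 (0.91), 5 (0.9) or 8 (0.99), with library size alone (0.63) and with days since induction (0.73). Among all genes 6.1% rose after AFL and 8.03% after vismodegib. Of 8 inhibitors of the pathway other than Socs3, 1 rose after AFL and none after vismodegib. After vismodegib 1 had an unadjusted p under 0.05 and DESeq2 called 0. The gene that rose was Ptpn6, a phosphatase of blood cells, at 70.5 to 75.9 CPM in AFL and 29.8 to 51 CPM in BCC mice (0.95, SE 0.26, edgeR adjusted p = 0.0306), and its call ended in 9 of 17 alternatives.

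Chosen with earlier results known, genes known to be switched on by STAT3 were counted as a list of 16. After AFL, 8 of 16 rose against BCC and none fell, with a median of 0.96 against -0.04 over all genes. After vismodegib, 10 of 16 rose and none fell, with a median of 1.83 against 0.05. Among all genes 6.1% rose after AFL and 8.03% after vismodegib. Lrg1, a secreted glycoprotein of inflamed tissue, stood at 51.2, 87.8 and 148 CPM in AFL mice 2, 7 and 11 and at 62.8 to 148 CPM in vismodegib mice, against 9.11 to 27.3 CPM in BCC mice. It rose by 2.39 after AFL (SE 0.44, edgeR adjusted p = 0.00241) and by 2.36 after vismodegib (SE 0.42, edgeR adjusted p = 0.00201). Hp, for the haemoglobin-binding acute phase protein haptoglobin, stood at 712 to 1050 CPM in AFL and 332 to 1580 CPM in vismodegib mice, against 121 to 196 CPM in BCC mice. It rose by 2.46 after AFL (SE 0.47, edgeR adjusted p = 0.00334) and by 2.55 after vismodegib (SE 0.45, edgeR adjusted p = 0.00201).

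The protease inhibitor genes of the list were higher too. Timp1 rose by 3.64 after AFL (SE 0.76, edgeR adjusted p = 0.00686) and by 3.38 after vismodegib (SE 0.73, edgeR adjusted p = 0.00655). Serpina3n, an acute phase serpin, rose by 1.57 after AFL (SE 0.34, edgeR adjusted p = 0.00759) and by 1.84 after vismodegib (SE 0.32, edgeR adjusted p = 0.0018). The IL-4 receptor gene Il4ra rose by 1.51 after AFL (SE 0.36, edgeR adjusted p = 0.0144) and by 1.81 after vismodegib (SE 0.34, edgeR adjusted p = 0.0028). Without AFL mouse 11 the AFL count fell to 2 of 16, namely Lrg1 and Hp, and it was 4 with days since induction. Without vismodegib mouse 9 the vismodegib count was 9 of 16. Between AFL and vismodegib skin, none of the 16 was called with edgeR, 3 had an unadjusted p under 0.05, and DESeq2 called 1. Other factors are also known to switch on genes of this list.

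**Figure D3:**
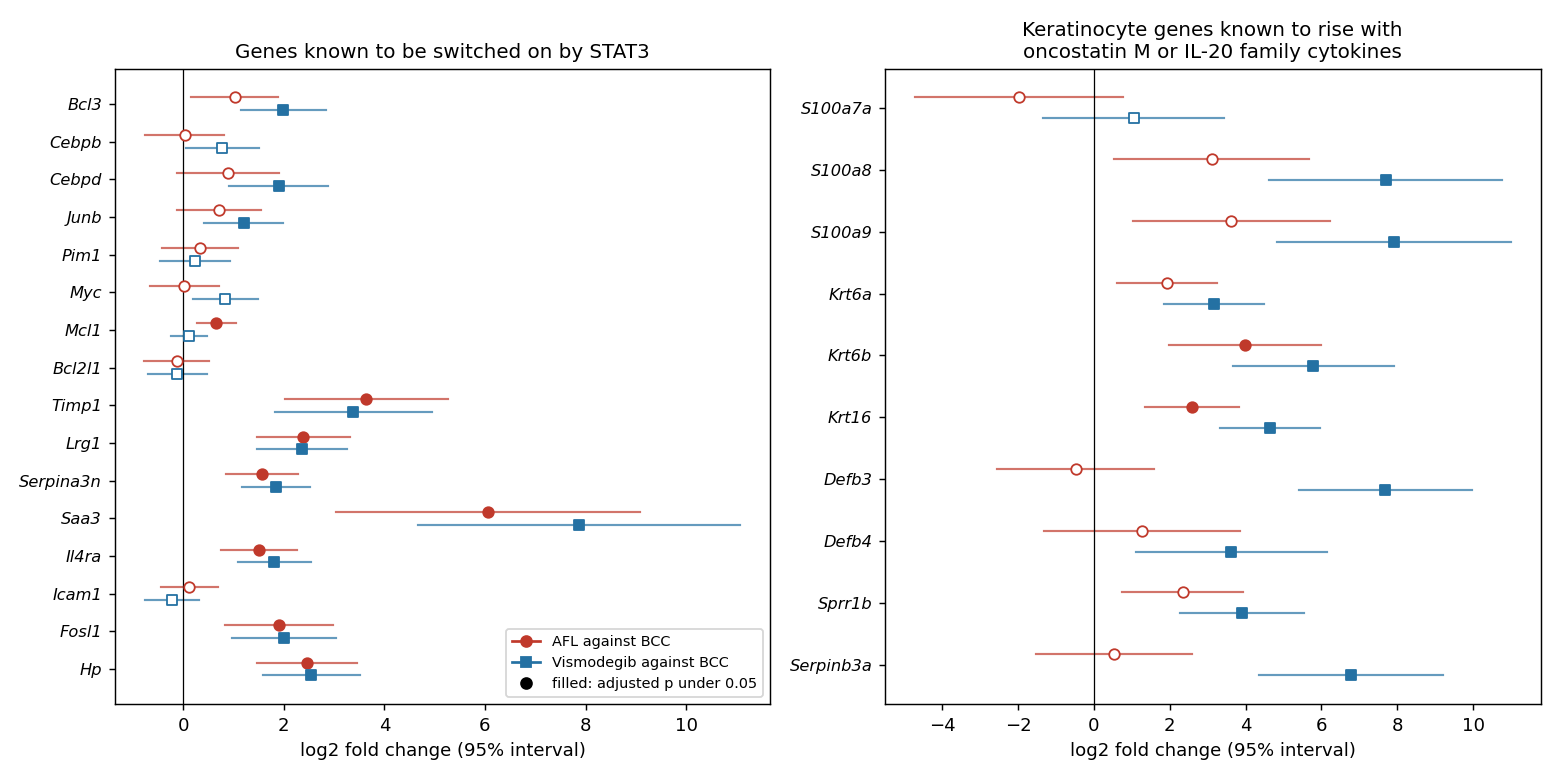
Log2 fold changes with 95% intervals against BCC for 16 genes known to be switched on by STAT3 (left) and 10 keratinocyte genes known to rise with oncostatin M or IL-20 family cytokines (right), after AFL (circles) and vismodegib (squares), filled where the edgeR adjusted p was under 0.05. Of the 16, 8 are filled for AFL and 10 for vismodegib, and of the 10, 2 and 9.

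Chosen with earlier results known, keratinocyte genes known to rise with oncostatin M or IL-20 family cytokines were counted as a list of 10. Of these, 2 rose after AFL and 9 after vismodegib against BCC, and none fell, with medians of 2.13 after AFL and 5.22 after vismodegib. Over all genes the medians were -0.04 and 0.05, and 6.1% and 8.03% rose. Krt16, a keratin of wounded epidermis, stood at 978, 1260 and 3630 CPM in AFL mice 2, 7 and 11 and at 6700, 4350, 15200 and 6310 CPM in vismodegib mice 1, 6, 9 and 12, against 112 to 487 CPM in BCC mice. It rose by 2.59 after AFL (SE 0.59, edgeR adjusted p = 0.0109) and by 4.65 after vismodegib (SE 0.62, edgeR adjusted p = 0.000361). Krt6b, its partner keratin, rose by 3.99 after AFL (SE 0.95, edgeR adjusted p = 0.0148) and by 5.79 after vismodegib (SE 1.01, edgeR adjusted p = 0.00177). Reads of Krt6b can be split with its near copy Krt6a, so its value is uncertain. Without AFL mouse 11 neither call held after AFL (Krt16 1.74, Krt6b 2.89), and the count of 10 was then 0. DESeq2 called 5 of the 10 after AFL.

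The antimicrobial peptide gene Defb3 stood at 0.254, 0.274 and 1.12 CPM in AFL mice 2, 7 and 11 and at 90.4, 33.6, 485 and 57.5 CPM in vismodegib mice 1, 6, 9 and 12, against 0.0869 to 1.73 CPM in BCC mice. It rose after vismodegib by 7.68 (SE 1.07, edgeR adjusted p = 0.000527). Serpinb3a, an epithelial protease inhibitor with near copies in its gene cluster, so that its value is uncertain, rose after vismodegib by 6.78 (SE 1.14, edgeR adjusted p = 0.00165). Set against vismodegib directly, 2.46% of all genes were lower and 6.69% higher after AFL. Of the 10, 3 were lower and none higher. They were Defb3 (-8.15, SE 1.25, edgeR adjusted p = 0.000989), Serpinb3a (-6.25, SE 1.26, edgeR adjusted p = 0.00644) and Krt16 (-2.06, SE 0.61, edgeR adjusted p = 0.0463). That count was 5 without AFL mouse 11 or vismodegib mouse 6, 2 without vismodegib mouse 9, where Krt16 was no longer called, and 1 with days since induction. After vismodegib the count of 9 was 8 without mouse 9.

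BCC skin was also compared with healthy skin, both untreated. None of the 10 genes was called, while 2.66% of all genes rose and 0.159% fell (2.82% in all), with medians of 0.41 for the 10 genes and 0 for all genes. Il24 alone had an unadjusted p under 0.05. It held 39 reads over the BCC mice and 2 over the healthy mice, which gives 29.5 times the CPM (95% counting interval 7.64 to 252) (edgeR adjusted p = 0.0547), and it was called in DESeq2 (adjusted p = 0.00234). In the keratinocyte list 4 of 10 rose in BCC and none fell, among them Krt16, at 112 to 487 CPM in BCC mice against 34.8 to 109 CPM in healthy mice (2.39, SE 0.52, edgeR adjusted p = 0.0162). The others were Krt6b (6.68, SE 0.95), at 31.9 to 479 CPM in BCC and 0.469 to 5.82 CPM in healthy mice, Serpinb3a (5.95, SE 1.17) and Defb3 (5.14, SE 1.3). Healthy mice held at most 0.116 CPM of Serpinb3a and 0.0579 CPM of Defb3, so those fold changes rest on few reads. The Defb3 call ended in 7 of the 9 fits that left out a mouse, and the Krt16 call in 3, without BCC mouse 4 (2.13) or healthy mouse 13 (2.34) or 14 (2.25). The count of 4 was 2 without any of these 3 mice in turn. In the STAT3 list 1 of 16 fell, Lrg1, with a log2 fold change of -1.74 (SE 0.4, edgeR adjusted p = 0.0237), a call that ended in 7 of 18 alternatives.

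Against healthy skin, which shares no treatment and differs in age, 3 of the 10 genes rose after AFL and 7 after vismodegib, and none fell. Of all genes, 7.95% rose and 1.29% fell after AFL (9.24% in all), and 7.57% rose and 4.07% fell after vismodegib (11.6% in all). The medians of the 10 genes were 1.23 and 1.56, and those of all genes 0.01 and 0.02. The genes that rose after AFL were Osm (5.38, edgeR adjusted p = 3.24e-05), Il6 (4.49, edgeR adjusted p = 0.00271) and Il24 (9.11, edgeR adjusted p = 9.59e-05). The p values of Il6 and Il24 here are not independent support, since both genes passed the count filter only through treated mice. Pooled over mice, the 1201 reads of Il24 against 2 give 970 times the CPM (95% counting interval 268 to 8020). AFL mouse 11 held 1058 of these reads, and the interval leaves out the spread between mice. With single mice left out, the log2 fold change was 7.41 to 9.66. After vismodegib Il24 had a ratio of 148 (interval 40.5 to 1230). The other 6 were Il19 (5.56), Il6 (4.89), Osm (2.14), Osmr (1.6), Lif (1.51) and Socs3 (1.12). With single mice left out, 5 to 7 were called. Osm lost its call without healthy mouse 13 (2.05) or 14 (1.92) and in limma voom (2.21), and Lif without vismodegib mouse 1 (1.06). Mice were 128 to 137 days old in the healthy group, so age, induction and treatment cannot be told apart here.

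Several lists of cell type markers also differed between groups. Against BCC, 6.1% of all genes were called higher after AFL and 8.03% after vismodegib. Neutrophil markers were called higher against BCC for 5 of 8 tested after AFL and 7 of 8 after vismodegib. Their sum, like all of the 10 genes except Il6ra, was highest among AFL mice in mouse 11. Among vismodegib mice it was highest in mouse 12 (228 CPM), where Il6ra and Il6st were also highest and Osm was lowest (2.04 CPM). Macrophage and monocyte markers were called higher for 10 of 10 after AFL and 5 of 10 after vismodegib. Their sums were 3300 to 4100 CPM in AFL and 639 to 2450 CPM in vismodegib mice, against 336 to 667 CPM in BCC and 411 to 1170 CPM in healthy mice, with none at 0. Keratinocyte markers summed to 16800 to 34300 CPM in AFL and 33200 to 59000 CPM in vismodegib mice, against 15500 to 24900 CPM in BCC mice, and 3 of 10 were called higher after vismodegib and none after AFL. Fibroblast markers summed to 21200 to 21800 CPM in AFL and 3190 to 9820 CPM in vismodegib mice, against 6580 to 22800 CPM in BCC mice. Of 8, 1 was called higher after AFL, and 1 higher and 2 lower after vismodegib. Endothelial markers summed to 246 to 544 CPM in AFL and 123 to 285 CPM in vismodegib mice, against 117 to 186 CPM in BCC mice, with 5 of 7 called higher after AFL and none after vismodegib. Mast cell markers summed to 354 to 678 CPM in AFL and 241 to 756 CPM in vismodegib mice, against 204 to 314 CPM in BCC mice, with 3 of 7 called higher after AFL and 1 after vismodegib. None of either list was at 0. No T cell, skeletal muscle or adipocyte marker was called against BCC after either treatment. The part of these cell types in the levels of the 10 genes was not tested. A growing-hair score, the mean log2 CPM of hair genes, was 0.45 to 4.62 in AFL and 2.31 to 9.07 in vismodegib mice. It was 3.17 to 8.89 in BCC and 6.33 to 9.77 in healthy mice, so the induced groups overlapped. None of 12 hair genes was called against BCC after either treatment. With this score as a covariate, Osm, Il6 and Il24 kept their calls after AFL, and Il19, Il6, Lif and Osmr theirs after vismodegib.

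**Figure D4:**
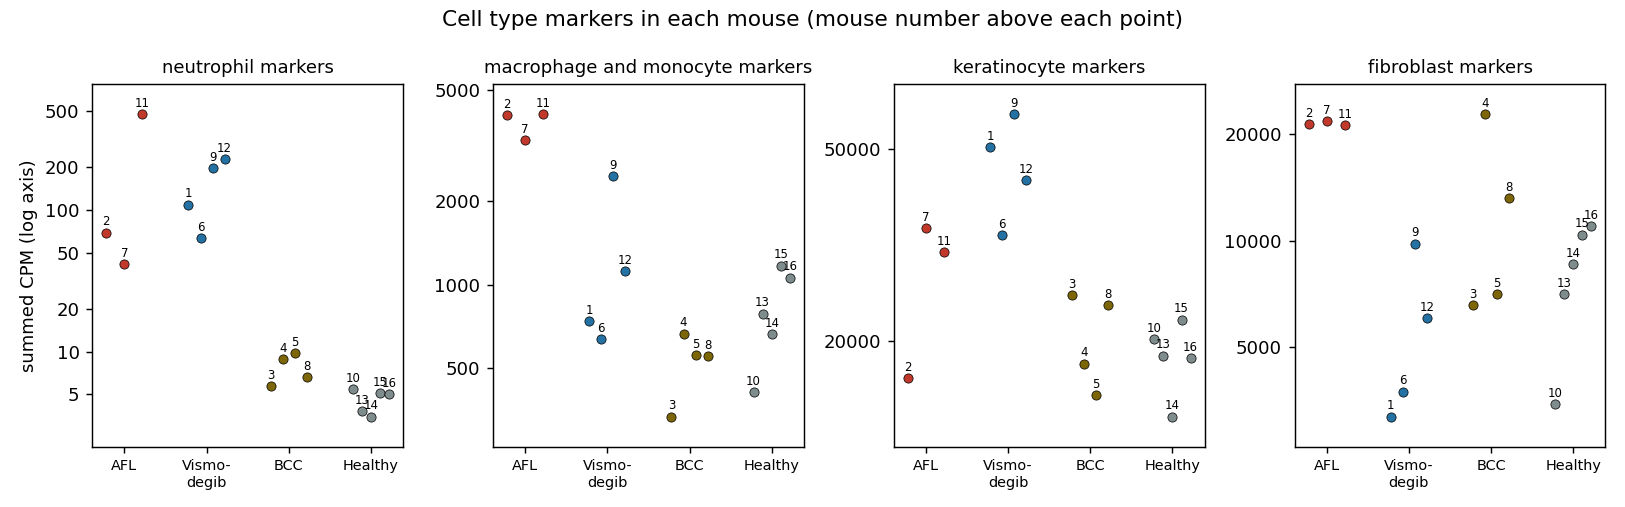
Summed CPM of neutrophil, macrophage and monocyte, keratinocyte and fibroblast markers on log axes, 1 point per mouse with its number, for AFL, vismodegib, BCC and healthy skin. Neutrophil markers lie at 41.4 to 477 CPM in AFL and 63.4 to 228 CPM in vismodegib mice, against 5.73 to 9.73 CPM in BCC mice.

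For each gene with at least 1 CPM on average, the 3 genes most alike over the 16 mice were found among 14280 genes by the root mean square difference of standardised log2 CPM, where 0 is an identical profile. Osm was closest to Tnfrsf23, a decoy receptor gene (0.24), the bacterial lipoprotein receptor gene Tlr2 (0.25) and the inflammasome gene Nlrp3 (0.27). Il6 was closest to Ifitm1 (0.3), Cxcl1, a neutrophil-attracting chemokine (0.31), and Cyp7b1 (0.31). Il24 was closest to Smim3 (0.28), Cstdc4 (0.29) and the neutrophil collagenase gene Mmp8 (0.35), and Osmr to Aadacl2 (0.26), Il13ra1 (0.29) and Il1a (0.29). Lif was closest to the leukotriene receptor genes Ltb4r1 (0.41) and Ltb4r2 (0.45), with Zc3h12a (0.44) between them. Socs3 was closest to Nlrp12 (0.42), 9530077C05Rik (0.42) and the gp130 ligand gene Clcf1 (0.43). The nearest genes stood at 0.42 to 0.43 for Il19 and 0.41 to 0.45 for Il6ra, and at 0.5 to 0.61 for Il6st. Mice of a group share its treatment, so a profile that follows the groups is alike by that alone.

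**Figure D5:**
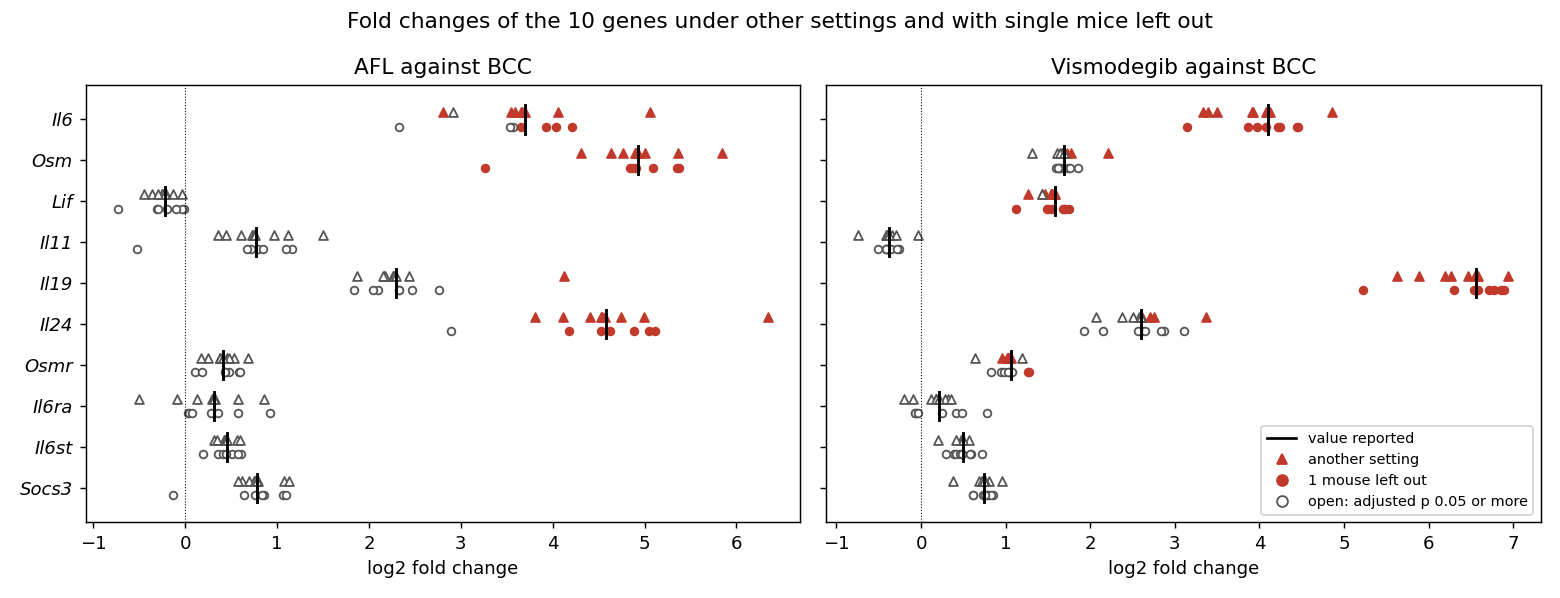
Log2 fold changes of the 10 genes against BCC as reported (bar), under other settings (triangles) and with 1 mouse left out (circles), filled where the adjusted p was under 0.05. Without AFL mouse 11, Il6 (2.33) and Il24 (2.89) lose their calls after AFL, while Osm (3.26) and, after vismodegib, Il6 and Il19 keep theirs throughout.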

How the data were processed

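RNA of 19 skin libraries from 16 mice was analysed. The deposited values are expected counts per gene, made by the authors with Bowtie2 and RSEM on GRCm39, per the submitters' processing notes, with versions, annotation and strand setting not given in the sources used here. Without a known strand setting, reads of overlapping or antisense genes cannot be told apart. Libraries were poly-A selected with oligo dT, per the labels' protocols. Of all values 3.42% were not whole, and 0% of those of the 10 genes. Counts were rounded, and the libraries of mice 11, 12 and 16 were summed per mouse. The labels give mouse 16 ages of 128 and 135 days for its 2 libraries.

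Genes were filtered with filterByExpr, which left 15760 and removed 2761. All 16 mice entered 1 quasi-likelihood fit in edgeR 4.0.16 (R 4.3.3, TMM scaling, robust, common dispersion 0.178), with Benjamini-Hochberg adjustment over all 15760 tests. "Rose", "fell" and "called" mean an adjusted p under 0.05. CPM uses TMM-scaled library sizes, and errors are SD over mice or SE of the log2 fold change. Where a group held 3 or fewer reads, ratios have 95% binomial counting intervals (exact), or bounds from a floor of 3 reads over the group, which cover counting error only. Alternatives were library size alone or RLE in place of TMM scaling, keeping genes of low count, all 19 libraries as replicates, limma 3.58.1 voom with the mouse as a random effect, DESeq2 1.42.0, the replicate number as a block, a growing-hair score (mean log2 CPM of follicle markers) or days since induction as a covariate, and each mouse left out. The fit with days since induction left out the healthy mice, and filter, scaling and dispersion were estimated anew. Its changes therefore cannot be put down to the covariate alone. Days did not overlap between AFL and BCC mice, so that covariate extrapolates between them. The libraries of mouse 16 as 2 mice, and all alternatives for the counts of the 6 gene lists, were added after seeing the data. The fit was tested on counts simulated from its own dispersion estimates, which cannot show how well it suits the real data.

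The 10 genes and the lists were chosen with earlier results of these data known. The genes named are the 10, of each list at most 4 called genes per comparison with the smallest p in AFL or vismodegib against BCC or BCC against healthy skin, and the 3 most alike genes. Lists are described by counts and medians and were not tested as sets. A result within the list of Janus kinases and STATs is not reported here, and that list's counts are left out.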

Additional observations from a re-analysis of the deposited data

Results flagged for a closer look

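Among 30 gene and group combinations of 4 or 5 mice, 3 had a mouse far from the others of its group by the gap relative to the range, and chance flags about 1 in 20. Lif stood at 17.3 CPM in vismodegib mouse 1, against 6.16 to 7.5 CPM in the other vismodegib mice. Il11 stood at 0.546 CPM in the same mouse, against 0.755 to 0.797 CPM in the others. Il19 stood at 59.2 CPM in vismodegib mouse 9, against 4.64 to 13.7 CPM in the others. Groups of 3, such as AFL with its high mouse 11, were not examined in this way.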

How the results depend on the processing

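Of 20 calls among the 10 genes over the 6 comparisons, 10 held under every alternative run, and of 40 values not called, 31 stayed so. The number of genes called higher in AFL against BCC was 1 to 3 when single mice were left out, with 1 without AFL mouse 11. In AFL against vismodegib, 3 were higher with all 19 libraries as replicates and 2 with days since induction. There the number lower was 1 with days since induction and 1 to 2 when single mice were left out, with 1 without AFL mouse 2 or 7 or vismodegib mouse 1. In BCC against healthy skin 1 was higher, Il24, with library size alone, no filter, 19 libraries, the hair score, DESeq2 or mouse 16 as 2 mice, and 0 to 1 when single mice were left out, with 1 without BCC mouse 8. In AFL against healthy skin the number was 6 with 19 libraries, 5 with DESeq2 and 3 to 5 when single mice were left out, with 5 without AFL mouse 2 or 7. The cause of these changes was not tested. Library size alone moved the median of all genes to -0.18 in AFL against BCC, -0.3 in vismodegib against BCC, 0.16 in AFL against vismodegib and -0.25 in vismodegib against healthy skin.

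Changes of sign touched values that were not called. With library size alone they were Il6ra in vismodegib against BCC (-0.1), Il6 (0.05) and Il6st (0.11) in AFL against vismodegib, Lif in BCC against healthy skin (0.01) and Il11 in vismodegib against healthy skin (-0.02). With the hair score they were Il6ra in AFL against BCC (-0.09) and against vismodegib (-0.21), Osmr in BCC against healthy skin (-0.0022) and Il6st in AFL against healthy skin (-0.05). With days since induction they were Il6ra in AFL (-0.5) and vismodegib (-0.2) against BCC, and Il6 (0.2) and Il6ra (-0.3) in AFL against vismodegib. With 19 libraries it was Il6 (0.14), and in voom Il6st (0.04) and Socs3 (-0.15), all in AFL against vismodegib. With single mice left out, the ranges that crossed 0 were, in AFL against BCC, Il11 (-0.52 to 1.16) and Socs3 (-0.13 to 1.1), and in vismodegib against BCC Il6ra (-0.07 to 0.78). In AFL against vismodegib they were Il6 (-1.7 to 0.53), Il11 (-0.1 to 1.57), Il6ra (-0.18 to 0.4), Il6st (-0.27 to 0.16) and Socs3 (-0.84 to 0.36). In BCC against healthy skin it was Lif (-0.19 to 0.12), in AFL against healthy skin Il6ra (-0.34 to 0.19) and Il6st (-0.09 to 0.34), and in vismodegib against healthy skin Il6ra (-0.44 to 0.09).

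Replicate numbers did not pair the mice. Deviations of same-numbered mice correlated between -0.39 and 0.6 over 21 pairs, 7 of them over 0.1, and 1 of 16 mice correlated best with its own number. With the replicate number as a block, 1040 genes in place of 1834 were called in vismodegib against healthy skin, Lif there was 1.45 (adjusted p = 0.0555), and Il6st (0.11) and Socs3 (-0.1) in AFL against vismodegib and Il6ra (0.49) in AFL against healthy skin changed sign.

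Over all genes, 1221 were called in AFL against BCC, but 1977 with DESeq2, 2068 with 19 libraries, 715 with days since induction and 597 without AFL mouse 11. Vismodegib against BCC gave 2684, but 1535 with days since induction and 1503 to 3418 with single mice left out. AFL against vismodegib gave 1442, but 2507 with DESeq2, 2612 with 19 libraries and 732 to 1487 with single mice left out. BCC against healthy skin gave 445, but 911 with DESeq2, 1009 with the hair score and 265 to 798 with single mice left out. AFL against healthy skin gave 1456, but 2479 with DESeq2, 3058 with 19 libraries and 799 to 1665 with single mice left out. Vismodegib against healthy skin gave 1834, but 3136 with DESeq2, 3425 with 19 libraries and 951 to 3490 with single mice left out. The share of calls that were higher was 47.2% in vismodegib against BCC and 16.9% with library size alone, and 65% in vismodegib against healthy skin and 39.7% with library size alone. It was 73.1% in AFL against vismodegib, 87.6% with library size alone and 60% with DESeq2. DESeq2 gave 63% in place of 78.7% in AFL against BCC, 80.7% in place of 94.4% in BCC against healthy skin and 65.1% in place of 86.1% in AFL against healthy skin.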

Other observations

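The mice with a pair of libraries show how far a level can differ within a mouse. In AFL mouse 11 the libraries held 44.1 and 63.9 CPM of Osm, 2.57 and 6.89 CPM of Il6, 11.1 and 22.4 CPM of Il24 and 103 and 162 CPM of Socs3. Both libraries of that mouse lay above every other mouse for Osm, Il24 and Socs3, while Osmr differed little between them (89.4 and 91 CPM). In vismodegib mouse 12 they held 1.41 and 0.281 CPM of Il24, from 46 and 9 reads, and 8.28 and 3.81 CPM of Il19. In healthy mouse 16, whose libraries carry different ages, they held 30.7 and 54.8 CPM of Il6ra and 0.978 and 0.701 CPM of Il19.

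Il20, the neighbour of Il19 and Il24 on chromosome 1 and a ligand of the same receptors, stood at 0.0317, 0.61 and 0.124 CPM in AFL mice 2, 7 and 11 and at 1.5, 0.243, 1.54 and 0.299 CPM in vismodegib mice 1, 6, 9 and 12. It stood at 0.124 to 0.218 CPM in BCC mice and at 0 to 0.175 CPM in healthy mice. All vismodegib mice were above all BCC mice in CPM, but vismodegib mouse 6 and BCC mouse 8 each held 8 reads. The log2 fold change between these groups, 2.44 (SE 0.85, edgeR adjusted p = 0.0596), did not pass. Against healthy skin Il20 rose after vismodegib by 3.44 (SE 0.83, edgeR adjusted p = 0.0164). Il20 was named after its values were seen. It passed the count filter only through treated mice, so these p values are not independent support.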
